A study of Mus musculus with 16 samples.

Results

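Promoters that carried an H3K27ac peak in vehicle-treated and in inhibitor-treated CD8+ T cells are described here. A promoter was a window reaching 1 kb to each side of a transcription start site (TSS), with 1 window per distinct TSS among curated RefSeq transcripts of mm10. Members were selected on H3K27ac: the window had to overlap, by 1 bp or more, a peak of the Veh H3K27ac list and a peak of the GSK H3K27ac list. Of 31603 promoters, 2583 met this rule, which is 8.17% of all promoters. They belonged to 2149 of 26141 genes, or 8.22% of genes. The H3K27ac values at these promoters are therefore given as a description only.

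The cells were CD8+ T cells from OT1 spleens. OT1 is a transgenic strain in which the T cell receptor recognises a peptide of ovalbumin. In both groups they were activated for 48 h with plate-bound anti-CD3 at 2 μg/ml and soluble anti-CD28 at 2 μg/ml, with IL-2 at 20 ng/ml, and were then expanded in IL-2 for 3 days. GSK2879552 (GSK), an irreversible inhibitor of the demethylase LSD1, was present at 0.5 μM throughout in 1 group, and vehicle (Veh) in the other. ChIP-seq, the sequencing of DNA bound by an antibody target, was done for RNA polymerase II (Pol II), for LSD1 and for the histone marks H3K27ac, H3K4me3, H3K4me2 and H3K4me1, with 1 library for each target and treatment. The age and sex of the mice, and how many were pooled, are not given in the sources used here. The cells came from 1 receptor-transgenic strain and 1 way of activation, so they stand for this culture only. With 1 library per group there was no spread between replicates, and no test was made of any difference below. Intervals are 95% intervals for shares of promoters (Wilson, and Newcombe for a difference of 2 shares). Only counting error is covered by them, and TSSs close to each other are not independent.

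Acetylation of lysine 27 of histone H3 is laid down by p300 and CBP on nucleosomes beside active promoters and enhancers and is recognised by bromodomain proteins. H3K4me3 sits on the first nucleosomes of most active CpG-rich promoters, H3K4me2 forms a shoulder around it, and H3K4me1 lies further out and at enhancers. LSD1 demethylates H3K4me2 and H3K4me1 and is brought to chromatin by CoREST. Pol II initiates at the TSS and often pauses just downstream of it.

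The depth of the libraries is not part of the peak lists. By the read numbers in the study's methods material, the GSK library was the shallower of the pair for H3K27ac, by a wide margin, and for H3K4me2, and the deeper for H3K4me1 and Pol II. The methods also describe random picking of reads to equalise libraries, without saying whether this came before peak calling. The part of depth in the results was not tested. The lists held between 2751 peaks for GSK H3K27ac and 40272 peaks for GSK H3K4me1. The Veh H3K27ac list held 7410 peaks, so the shorter GSK list set the number of members: 96.0% (95.2 to 96.7) of the 2690 promoters with GSK H3K27ac were members, against 40.3% (39.1 to 41.5) of the 6404 promoters with Veh H3K27ac. A further 3821 promoters had H3K27ac in Veh only and 107 in GSK only. Another 9057 promoters had H3K4me3 in both treatments and H3K27ac in neither, and these serve below as a second group for comparison. Of the CD8 T cell markers, Lck and Zap70 were member genes, Cd3e, Cd8b1 and Cd2 had H3K27ac in Veh only, and Cd3d, Cd3g and Cd8a had H3K4me3 without H3K27ac. Of 22 markers of CD4 T cells, B cells, myeloid, natural killer and erythroid cells none was a member gene. Of these 22, 10 had no peak in any of the 12 lists, among them Cd4, Foxp3, Ms4a1, Cd79a, Pax5, Lyz2, Csf1r and Ncr1, and 3 had H3K27ac in Veh only (Spi1, Klrd1 and Eomes). The study found EOMES protein in cultured CD8+ T cells by flow cytometry, so Eomes does not mark natural killer cells alone. The part of other cells in the results was not tested.

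Members were CpG-rich promoters. Over 500 bp on either side of the TSS, their median CpG observed over expected was 0.808, against 0.757 for promoters with H3K27ac in Veh only, 0.713 for those with H3K4me3 and no H3K27ac, and 0.510 for all promoters. At 0.6 or more stood 2222 members (86.0%, 84.6 to 87.3), against 43.1% of all promoters. Median GC content differed little, at 60.3% in members, 59.1% with H3K27ac in Veh only and 59.9% with H3K4me3 and no H3K27ac. The promoters of 4 genes are shown as read from the GRCm38.p6 genome, from 250 bases before the TSS to 50 after it, 5′ to 3′ on the strand of the gene, with motifs in capitals. Idi1, an isomerase of the cholesterol pathway, and Gmnn, the replication licensing inhibitor geminin, stand among the members of highest H3K27ac. Gbp6, an interferon-induced GTPase, and Zap70, the kinase of the T cell receptor, stand among the members poorest in CpG. Idi1 lies at chr13:8885356-8885655 on the plus strand, Gmnn at chr13:24761888-24762187 on the minus strand, Gbp6 at chr5:105293650-105293949 on the minus strand, and Zap70 at chr1:36766684-36766983 on the plus strand.
Idi1: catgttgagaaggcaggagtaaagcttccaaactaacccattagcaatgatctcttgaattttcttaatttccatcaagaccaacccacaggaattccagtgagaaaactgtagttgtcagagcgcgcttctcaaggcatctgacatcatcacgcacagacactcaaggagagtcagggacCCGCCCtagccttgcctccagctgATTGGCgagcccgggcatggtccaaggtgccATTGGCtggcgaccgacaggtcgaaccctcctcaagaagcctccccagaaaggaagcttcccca
Gmnn: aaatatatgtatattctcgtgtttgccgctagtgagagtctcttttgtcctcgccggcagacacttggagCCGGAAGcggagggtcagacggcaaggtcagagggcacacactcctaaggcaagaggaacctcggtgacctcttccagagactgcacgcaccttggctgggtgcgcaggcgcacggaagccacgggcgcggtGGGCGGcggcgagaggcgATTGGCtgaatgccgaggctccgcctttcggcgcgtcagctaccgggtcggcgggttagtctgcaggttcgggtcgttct
Gbp6: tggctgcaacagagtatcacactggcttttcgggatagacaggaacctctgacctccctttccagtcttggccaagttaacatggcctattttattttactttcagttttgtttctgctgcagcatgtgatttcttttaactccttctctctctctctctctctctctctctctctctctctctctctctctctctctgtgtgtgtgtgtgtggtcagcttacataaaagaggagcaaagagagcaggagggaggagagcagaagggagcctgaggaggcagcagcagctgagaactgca
Zap70: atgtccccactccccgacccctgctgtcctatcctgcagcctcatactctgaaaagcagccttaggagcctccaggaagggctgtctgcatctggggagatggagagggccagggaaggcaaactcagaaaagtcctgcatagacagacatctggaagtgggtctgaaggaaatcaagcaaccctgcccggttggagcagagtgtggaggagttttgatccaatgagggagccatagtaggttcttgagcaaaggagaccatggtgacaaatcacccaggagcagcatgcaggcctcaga
In capitals in Idi1 are 1 copy of GGGCGG (the SP1 and KLF motif, here as its complement) from position -69 to -64 relative to the TSS, and 2 copies of GCCAAT (the NFY motif, here as its complement) from -45 to -40 and from -14 to -9. Gmnn held CCGGAAG (the ETS motif) from -180 to -174, GGGCGG from -48 to -43 and GCCAAT, as its complement, from -30 to -25. Neither Gbp6 nor Zap70 held any of the 11 motifs searched, and their CpG observed over expected was 0.0526 and 0.0587, against 0.652 for Idi1 and 0.97 for Gmnn.

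Over the same 300-base windows, read on both strands, 632 members (24.5%, 22.8 to 26.2) held CCGGAAG, the core that ETS factors bind, against 10.4% of all promoters and 14.5% of promoters with H3K4me3 and no H3K27ac. The difference to the latter was 9.95 points (8.17 to 11.8). Promoters with H3K27ac in Veh only held it at 23.7%, and the interval of the difference to members, 0.757 points (-1.37 to 2.91), spans 0. AAGATGGC, the YY1 motif, was found at 6.16% of members against 3.58% with H3K4me3 and no H3K27ac, 5.44% with H3K27ac in Veh only and 2.85% of all promoters. TGACGTCA, the cyclic AMP response element, was found at 4.18% of members and 4.03% with H3K27ac in Veh only. It stood at 2.99% with H3K4me3 and no H3K27ac and 2.21% of all promoters. GCGCATGC, the NRF1 motif, was found at 6.12% of members, 6.25% with H3K27ac in Veh only, 4.60% with H3K4me3 and no H3K27ac and 3.16% of all promoters. GCCAAT was found at 21.1% of members, 19.1% with H3K27ac in Veh only, 19% with H3K4me3 and no H3K27ac and 16% of all promoters. GGGCGG was the most frequent, at 65.2% of members, but it was also found at 68.4% of promoters with H3K4me3 and no H3K27ac and 43.2% of all promoters. TGANTCA, the AP-1 motif, was found at 3.52% of members against 7.21% of all promoters, and TATAAA, sought on the strand of the gene between 40 and 20 bases before the TSS, at 0.929% against 2.20%. Both were near their shares at the other promoters with H3K4me3: TGANTCA stood at 4.32% with H3K27ac in Veh only and 4.27% with no H3K27ac, and TATAAA at 0.942% and 0.839%, and the intervals of the differences to members include 0. CACGTG, the E-box, stood at 10.0% of members and 7.67% of all promoters. Its share was 10.8% with H3K27ac in Veh only and 10.4% with H3K4me3 and no H3K27ac. ACTACAA of ZNF143 stood at 3.52% of members and 3.40% of all promoters. With H3K27ac in Veh only its share was 4.87%, a difference of -1.34 points (-2.32 to -0.335) as members minus Veh only. TGTGGTT of RUNX factors stood at 3.87% of members, 3.98% with H3K27ac in Veh only and 4.73% of all promoters. None of these motifs is contained within another, and a match is a run of letters and not a measured binding site.

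H3K27ac at members spanned weak and strong peaks, with a median fold rank of 69.9 in the Veh list and 58.8 in the GSK list on a scale of 100. The fold is the enrichment the authors' peak caller gave a peak over local background, and where a promoter had several peaks the highest fold was kept. At members it ranged from 2.37 to 9.30 with a median of 4.28 in Veh, and from 2.84 to 10.4 with a median of 5.06 in GSK. The fold was higher in GSK at 2318 members (89.7%). The median −log10 p went the other way, 12.4 in Veh and 9.17 in GSK, as did the median peak width, 729 bp and 412 bp. The median difference in fold rank, GSK minus Veh, was -6.69. The rule required a peak in the GSK library, the shallower by the study's read numbers, so these directions are a description only. Across the 2583 members the folds of both treatments had a Spearman correlation of 0.691, over promoters that partly share peaks. Coverage by H3K27ac peaks was highest downstream of the TSS: in Veh, 57.3% of members were covered at the TSS, 54.4% at 150 bp upstream and 73.4% at 150 bp downstream, and in GSK 37.1%, 36.9% and 56.1%.

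**Figure D1:**
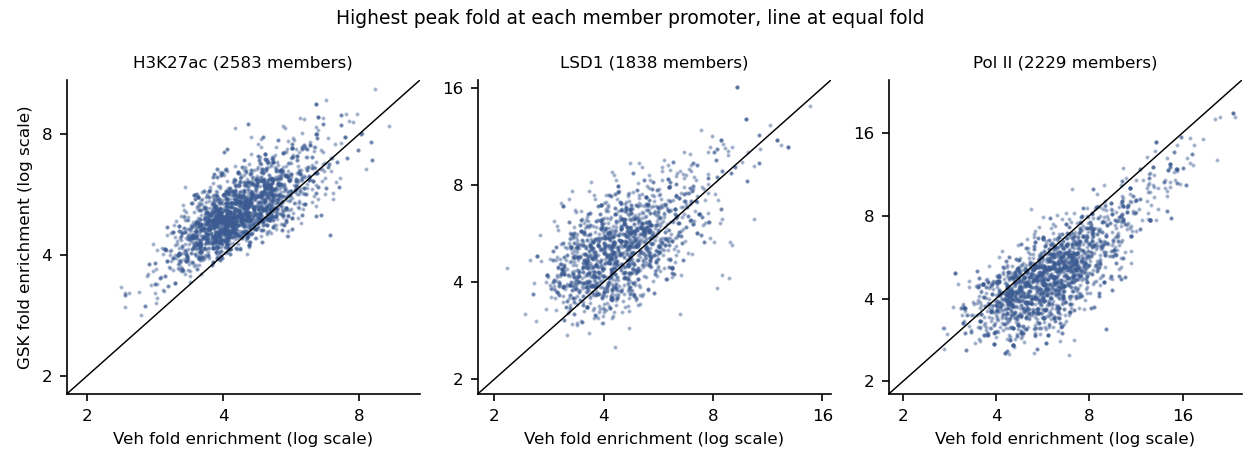
Highest peak fold at each member in Veh (x axis) and GSK (y axis), both on log scales, for H3K27ac, LSD1 and Pol II, with 1 point per member that had a peak in both treatments and a line at equal fold. H3K27ac lies above the line at 89.7% of members, LSD1 at 72.5% and Pol II at 16.1%. Members were chosen on H3K27ac in both lists, so its direction is a description only.

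The members of highest H3K27ac in both lists belonged to genes of varied function, none of them on a T cell list. Rab11b, a GTPase of recycling endosomes, led with an H3K27ac fold of 8.70 in Veh and 10.4 in GSK, in the Veh peak chr17:33759986-33760348, which lies downstream of its TSS at position 33760486 on the minus strand. It had LSD1 at 3.63 and 3.83, H3K4me2 at 5.26 and 4.57, H3K4me3 at 7.80 and 7.08 and Pol II at 7.04 and 4.60 in Veh and GSK, and no H3K4me1 in either. Zfp414 followed with H3K27ac at 7.93 and 8.96 and Idi1 with 7.47 and 8.98. Idi1 had LSD1 at 3.92 and 3.86, Pol II at 8.16 and 4.92, and neither H3K4me1 nor H3K4me2. Gmnn had H3K27ac at 7.77 and 8.56, Wdr34, a dynein subunit of cilia, had 7.59 and 8.65, and Zfp869 had 9.30 and 8.4. Supv3l1, a mitochondrial RNA helicase, shares its peaks with the divergent transcript 4930507D05Rik, at 7.29 and 8.93. Emc1, a subunit of a membrane protein insertase, shares its peaks with Mrto4, a factor of ribosome assembly, at 7.28 and 8.43. At all 10 of these genes the Pol II fold was lower in GSK, by little at Zfp414 (5.32 and 5.31), or Pol II was listed in Veh only, as at the shared promoter of Supv3l1.

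Many members share an acetylated region. The 2583 members lay at 1739 Veh and 1723 GSK H3K27ac peaks, which are 23.5% (22.5 to 24.4) of the Veh list and 62.6% (60.8 to 64.4) of the GSK list. Of the GSK peaks, 630 touched more than 1 member, up to 7. An opposite-strand TSS within 1 kb upstream was found at 746 members (28.9%), against 26.9% of promoters with H3K27ac in Veh only, 14% with H3K4me3 and no H3K27ac and 11.0% of all promoters. At 2573 members the Veh and GSK peaks overlapped each other, and at 10 they did not. Protein-coding transcripts started at 2312 members (89.5%), 199 members belonged to lncRNA genes and 31 to miRNA or snoRNA genes.

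The X chromosome held few members: 20 of its 1331 promoters (1.5%, 0.975 to 2.31), the lowest share of any chromosome but Y, which had none of 93. The highest shares were on chromosomes 13 (11.0%), 11 (10.9%) and 19 (10.8%). Veh H3K27ac on X was found at 111 promoters, of which 18% (12 to 26.2) were members, against 40.7% (39.5 to 41.9) of the 6293 autosomal ones. The Veh peaks had a median fold of 4.12 on X and 4.08 on autosomes and a median −log10 p of 9.49 and 10.1. The part of peak strength in the share on X was not tested. Kdm5c, a demethylase of H3K4me3, and Acsl4, which activates long-chain fatty acids, were among the X-linked members.

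H3K4me3 and Pol II were present at almost every member. H3K4me3 was listed in both treatments at 2572 members (99.6%), where the background over all promoters is 49.1%. It was listed in Veh only at 1 member, the lncRNA Gm16008, and in GSK only at 1, Gm15471, where the backgrounds are 0.351% and 1.52%. Neither treatment had it at the remaining 9. Pol II was listed in both treatments at 2229 members (86.3%), against a background of 21.2%. It was in Veh only at 196 (background 7.08%), in GSK only at 55 (background 2.84%) and in neither at 3.99%.

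LSD1 was listed at more members than H3K4me1 or H3K4me2. LSD1 was listed in both treatments at 1838 members (71.2%, background 30.7%), in Veh only at 138 (background 4.51%) and in GSK only at 412 (background 9.92%). H3K4me1 was listed in both at 595 (23.0%, background 25.9%), in Veh only at 175 (background 3.51%) and in GSK only at 382 (background 9.77%). H3K4me2 was listed in both at 587 (22.7%, background 25.4%), in Veh only at 730 (28.3%, background 12.8%) and in GSK only at 97 (background 1.92%). The shares of H3K4me1 and H3K4me2 in both treatments thus stood slightly below those of all promoters, of which 49.1% had no H3K4me3 peak in either treatment. Within a single treatment the shares of members were close to or above those of all promoters. H3K4me2 was listed in Veh at 51.0% of members against 38.2% of all promoters, and in GSK at 26.5% against 27.4%. H3K4me1 was listed in Veh at 29.8% against 29.4%, and in GSK at 37.8% against 35.7%. The H3K4me1 share in GSK only was 14.8% of members.

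**Figure D2:**
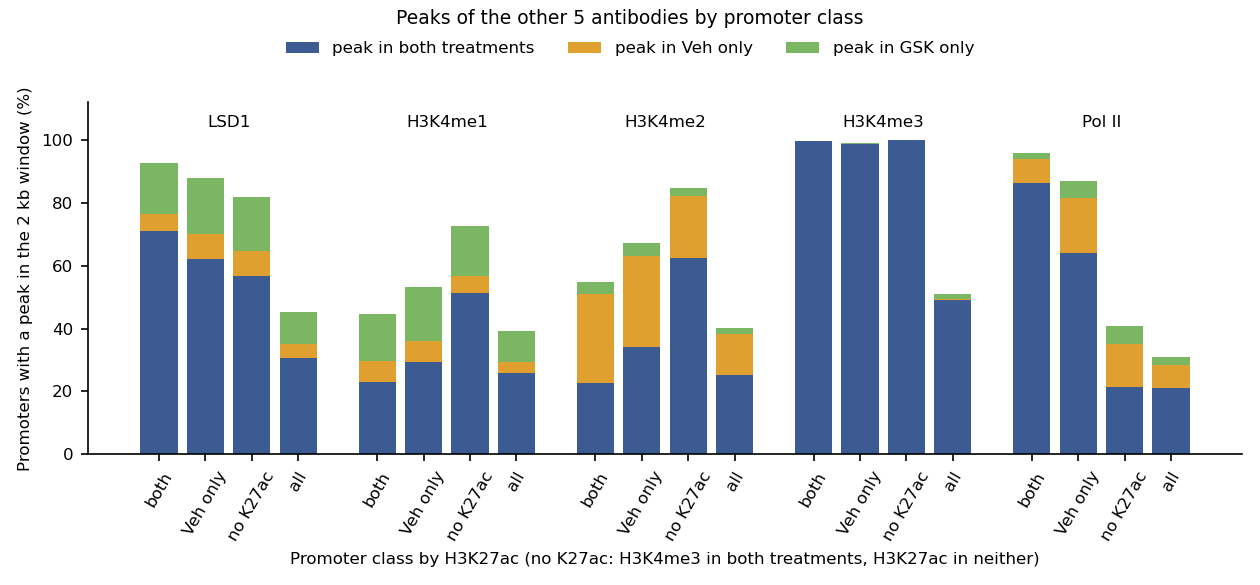
Share of promoters (y axis, percent) with a peak of each of the 5 other antibodies in both treatments, in Veh only or in GSK only, for promoters with H3K27ac in both treatments, in Veh only, with H3K4me3 and no H3K27ac, and all promoters. For peaks in both treatments, members have the highest shares of Pol II (86.3%) and LSD1 (71.2%) and, of the 3 classes with H3K4me3, the lowest of H3K4me1 and H3K4me2.

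Against promoters with H3K27ac in Veh only, members had Pol II in both treatments more often by 22.1 points (20.1 to 24.1) and LSD1 by 8.90 points (6.56 to 11.2). They had H3K4me2 less often by 11.3 points (-13.5 to -9.07 as members minus Veh only) and H3K4me1 less often by 6.38 points (-8.54 to -4.19). The gap to promoters with H3K4me3 and no H3K27ac was wider. Pol II in both treatments differed by 64.9 points, LSD1 by 14.6 points, H3K4me1 by -28.2 points and H3K4me2 by -39.7 points. The LSD1 difference to the Veh-only class became 2.90 points (-0.113 to 5.87) with stricter peaks, an interval that includes 0. With the same stricter peaks the H3K4me2 difference was -3.54 points (-5.21 to -1.74) and the H3K4me1 difference -2.71 points (-4.88 to -0.431).

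Members also had stronger Veh H3K27ac than the Veh-only class, with a median −log10 p of 12.4 against 8.90, so both classes were set beside each other within 4 bins of that value with nearly equal numbers of promoters. The share of members was 12.7% in bin 1 and 70.6% in bin 4, which the rule itself bears on. Pol II in both treatments stood at 72.1% of members and 55.0% of Veh-only promoters in bin 1 and at 91.0% and 71.5% in bin 4, and the interval of the difference lay above 0 in all 4 bins. LSD1 was more frequent at members in all 4, by 13.7, 3.65, 11.6 and 9.08 points, and the interval of bin 2 (-1.54 to 8.63) included 0. H3K4me2 was less frequent in all 4, by between 5.04 and 11.6 points, with an interval that included 0 in bin 1. H3K4me1 was less frequent by 9.05 and 11.3 points in bins 1 and 3, and in bins 2 and 4 the intervals included 0.

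**Figure D3:**
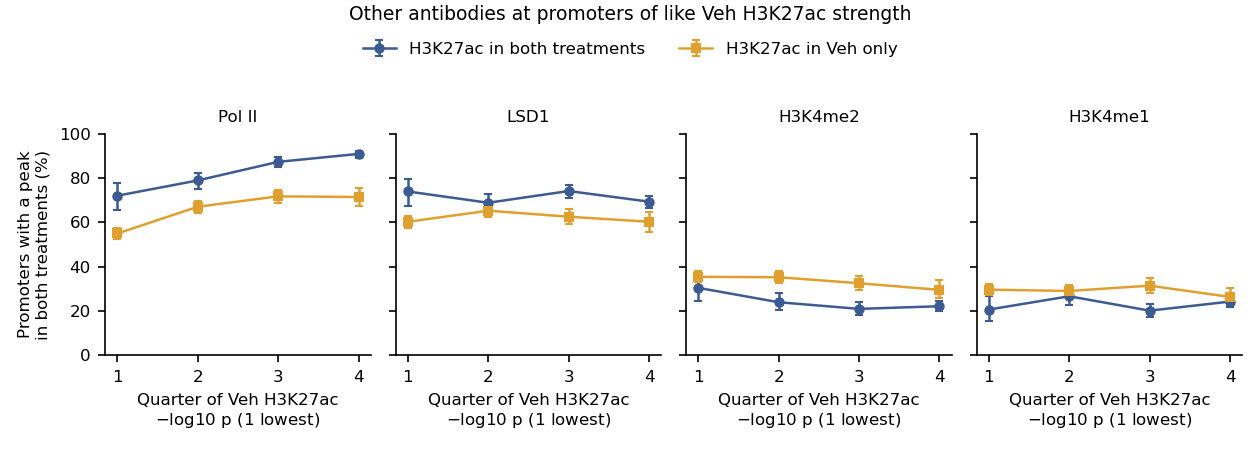
Share of promoters (y axis, percent) with a peak in both treatments, for Pol II, LSD1, H3K4me2 and H3K4me1, by bin of the Veh H3K27ac −log10 p (x axis), for promoters with H3K27ac in both treatments or in Veh only. Bars are 95% Wilson intervals. Pol II lies higher at members in each bin, by 11.9 to 19.4 points.

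The position of H3K4me1 and H3K4me2 differed from that at promoters with H3K4me3 and no H3K27ac, but less from that at promoters with H3K27ac in Veh only. H3K4me1 left a gap at the TSS of members: in Veh its peaks covered 2.3% of members at the TSS and at most 13.4%, at 1050 bp upstream. At promoters with H3K4me3 and no H3K27ac they covered 23.8% at the TSS and at most 26.0%, at 250 bp downstream. In GSK the values at members were 2.40% at the TSS and 17.8% at 1450 bp upstream. Promoters with H3K27ac in Veh only had a like gap, with 4.25% at the TSS and at most 14.4% in Veh, and 5.0% and 21.3% in GSK. Within 5 kb of the TSS, 72.0% of members had a Veh H3K4me1 peak and 84.4% a GSK one. Promoters with H3K27ac in Veh only had nearly the same, 72.4% and 84.4%. Those with H3K4me3 and no H3K27ac had 76.1% and 86.2%, and all promoters 49.0% and 56.2%. Only outside the promoter window, members had it at 42.2% and 46.6%, and the Veh-only class at 36.3% and 37.7%. Those without H3K27ac stood there at 19.3% and 19.2%, and all promoters at 19.6% and 20.6%. H3K4me2 was highest at 650 bp downstream in Veh, over 22.8% of members, and at 450 bp in GSK, over 11.0%, whereas at promoters with H3K4me3 and no H3K27ac it was highest at 250 bp, over 59.4% and 44.4%. The H3K4me3 peak was wide at members, with a Veh median of 1716 bp, against 1510 bp with H3K27ac in Veh only and 1052 bp without H3K27ac. Its median fold was lower at members, 5.25 against 5.79 and 6.20. The median −log10 p did not follow that order, at 91.1 against 92.9 and 58.9.

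**Figure D4:**
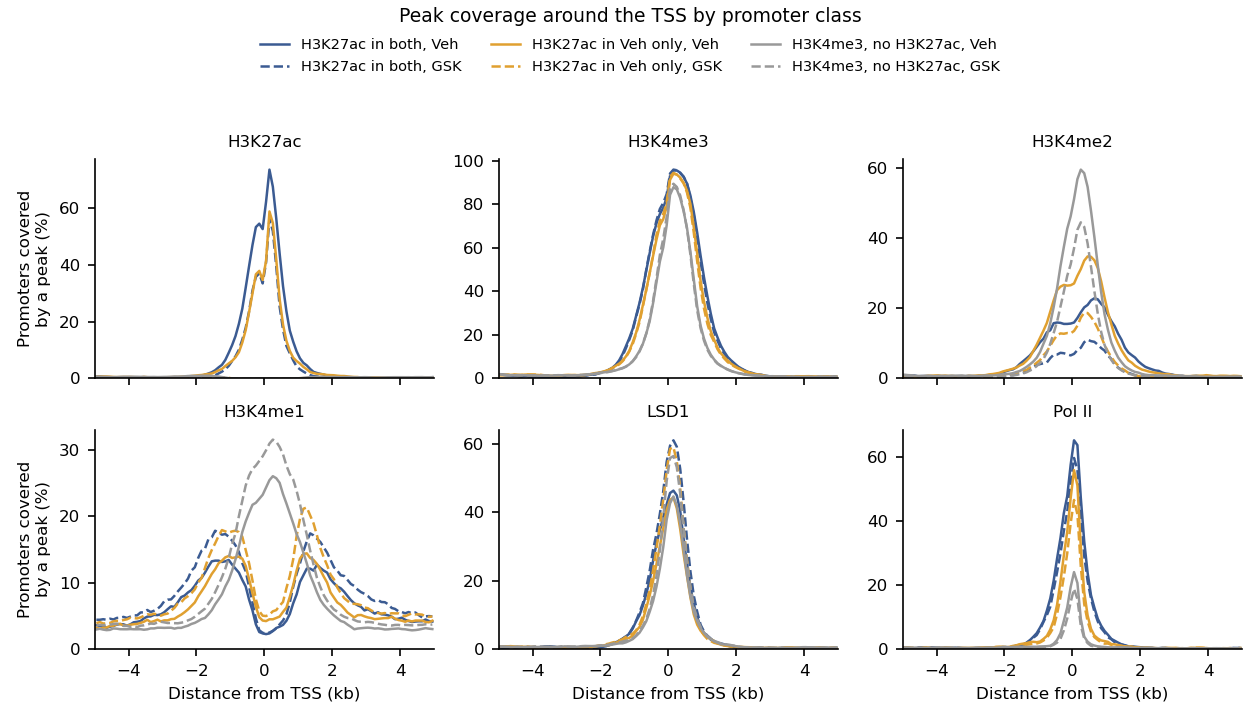
Share of promoters (y axis, percent) covered by a peak by distance from the TSS (x axis, kb, upstream negative) for the 6 antibodies, in Veh (solid) and GSK (dashed), for members, promoters with H3K27ac in Veh only and promoters with H3K4me3 and no H3K27ac. H3K4me1 leaves a gap at the TSS of members, where it covers 2.3% in Veh, and is centred on promoters without H3K27ac, where it covers 23.8%.

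Pol II and LSD1 both centred just downstream of the TSS. The median Pol II summit at members lay 43 bp downstream in Veh and 43 bp in GSK, and 58.2% and 57.6% of summits were downstream. The median LSD1 summit lay 34.5 bp downstream in Veh and 95 bp in GSK, with 53.8% (51.6 to 56.1) and 59.0% (56.9 to 61.1) downstream. LSD1 summits were more spread than Pol II summits: 36.3% of Veh LSD1 summits and 55.1% of Veh Pol II summits lay within 200 bp of the TSS. Pol II summits at members were in turn more spread than at promoters with H3K4me3 and no H3K27ac, where 73.7% lay within 200 bp.

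Pol II was listed at members with a median fold of 5.81 in Veh and 4.8 in GSK. The fold was higher in GSK at 358 of the 2229 members with both (16.1%), yet the median rank within the list was nearly equal, 81.8 and 83.7 on a scale of 100. LSD1 had a median fold of 4.37 in Veh and 4.92 in GSK and was higher in GSK at 72.5% of the 1838 members with both, and H3K4me3 stood at 5.25 and 5.36. Across members with both peaks, the folds of Veh and GSK had a Spearman correlation of 0.97 for H3K4me3, 0.775 for H3K4me1, 0.705 for Pol II, 0.591 for H3K4me2 and 0.536 for LSD1. H3K27ac fold itself was most closely ordered with H3K4me3 fold, with a Spearman correlation of 0.430 in Veh and 0.476 in GSK, and least with LSD1 fold (0.108 and 0.138). These correlations are across promoters that partly share peaks, and fold depends on the background of each library.

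Between treatments, the share of members with LSD1 went from 76.5% in Veh to 87.1% in GSK, a net 10.6 points (8.99 to 12.1). Promoters with H3K27ac in Veh only had a net 9.95 points and those with H3K4me3 and no H3K27ac 9.31 points, and the intervals of the 3 classes (8.43 to 11.4 and 8.33 to 10.3 for the latter) overlap. Of the 1976 members with LSD1 in Veh, 93.0% (91.8 to 94.1) also had it in GSK, against 88.9% of the Veh-only class and 87.7% of those without H3K27ac. Of the 607 members without it in Veh, 67.9% had it in GSK. Among promoters without it in Veh, this share was 59.3% in the Veh-only class, 48.8% without H3K27ac and 15.3% over all promoters. The net change of LSD1 over all promoters was 5.42 points. The net change of H3K4me1 at members was 8.01 points (6.30 to 9.62), and of H3K4me2 -24.5 points (-25.8 to -23.0). Promoters with H3K27ac in Veh only had 10.6 and -25.0 points. Those with H3K4me3 and no H3K27ac had 10.1 and -17.4 points, and all promoters 6.27 and -10.9. With the lists of each antibody cut to equal length the values at members became 1.12 points (-0.946 to 3.17) and -1.24 points (-3.38 to 0.937). The H3K4me1 list held 34387 peaks in Veh and 40272 in GSK and the H3K4me2 list 15219 and 9437, and the part of list length in these shifts was not tested further. Pol II had a net change of -5.46 points (-6.37 to -4.39) at members, against -12.3 points (-13.5 to -11.0) at promoters with H3K27ac in Veh only. Those with H3K4me3 and no H3K27ac had -7.82 points, and all promoters -4.24 points.

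The most frequent combination at members was LSD1, H3K4me3 and Pol II without H3K4me1 or H3K4me2, at 28.1% in Veh and 39.6% in GSK. In Veh, LSD1, H3K4me2, H3K4me3 and Pol II followed at 23.7%, and all 5 antibodies at 14.1%. LSD1, H3K4me3 and Pol II were all listed in both treatments at 1614 members (62.5%), against 42.3% of promoters with H3K27ac in Veh only and 14.4% of all promoters. Only 141 members (5.46%) had a peak in all 10 other lists, among them Wdr34. The calls of all 5 antibodies were the same in both treatments at 1008 members (39.0%). The shares by single treatment, in all 10 lists and with the same calls were counted at members only. Whether they differ from those of other promoters cannot be told here.

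The promoters at which a list differed between treatments are named by the highest −log10 p of the peak. LSD1 in Veh only was strongest at Csf2ra, a cytokine receptor subunit, at a fold of 6.80, and at the lncRNA Tug1 at 8.95. LSD1 in GSK only was strongest at Ncoa2, a nuclear receptor coactivator, at 6.78, and at Eif4a1, an RNA helicase of translation initiation, at 8.34. H3K4me1 in GSK only was led by Pold3, a DNA polymerase delta subunit, at 5.77, and in Veh only by Blcap at 5.96. H3K4me2 in Veh only was led by Kat7, a histone acetyltransferase, at 6.24, and Ptprcap, a CD45-associated protein, at 5.42. H3K4me2 in GSK only was led by Tug1 at 5.54. Pol II in Veh only was led by Aars, the alanyl-tRNA synthetase, at 7.12, and by Kifc1, a mitotic kinesin, at 7.02. Pol II in GSK only was led by Gm12764 at 7.54 and by Ptbp3, an RNA-binding protein of splicing, at 5.31.

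The promoters without H3K4me3 were of another kind. Rnu2-10, a gene of the U2 spliceosomal RNA, had H3K27ac at 6.43 in Veh and 8.34 in GSK and Pol II at 14.3 and 13.0, with LSD1 at 3.66 and 3.45 and no H3K4 methylation. It has near-identical copies, so its reads are uncertain. A start of Zap70 at chromosome 1, position 36766934, had H3K27ac at 4.10 and 4.36, LSD1 at 4.05 and 3.29, H3K4me1 at 2.67 and 2.62, and Pol II in GSK only at 3.53. Podnl1 and 4930546K05Rik had H3K27ac with H3K4me1 and no Pol II. Olfr525, the 1 member of 1567 odorant, vomeronasal and trace amine receptor, keratin and defensin genes, had H3K27ac at 3.70 and 4.41 and H3K4me1 at 2.33 and 2.24, H3K4me2 in Veh only at 3.9, and neither H3K4me3 nor Pol II.

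Members poor in CpG differed in their other marks. The 361 members with CpG observed over expected below 0.6 had H3K4me1 in both treatments at 45.4% (40.4 to 50.6), against 19.4% (17.8 to 21.1) of the other 2222. LSD1 was listed in both at 51.0% (45.8 to 56.1) of the CpG-poor members and 74.4% (72.6 to 76.2) of the others, Pol II at 77.0% and 87.8%, and H3K4me2 at 22.4% and 22.8%. After Gbp6, the lowest CpG values were at Trim30a (0.0534), Zap70, Ifi208 (0.0618) and Pilrb1 (0.0619), of which Trim30a and Ifi208 are interferon-induced. The 100 members with TGTGGTT, the RUNX motif, had H3K4me1 in both treatments at 48.0%, against 22.0% of members without it. Among CpG-poor members the 2 values were 58.3% (42.2 to 72.9) and 44.0% (38.7 to 49.4), and among the others 42.2% (30.9 to 54.4) and 18.7% (17.1 to 20.4).

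Among gene functions, RNA processing had the highest share. Gene lists are given as the share of their genes with a member promoter, beside 8.22% of all genes. Of the 26141 genes only 13437 had H3K4me3, whereas nearly all genes of most lists had it. A share above 8.22% therefore does not by itself set a list apart from other genes with H3K4me3. These counts are fixed by H3K27ac alone and are a description. Splicing factors and hnRNP proteins, which bind and splice pre-mRNA, had 32 of 54 genes among the members (59.3%, 46.0 to 71.3), and 12 more had H3K27ac in Veh only. All 48 of their member promoters had H3K4me3 and Pol II in both treatments, 36 had LSD1 in both and 8 in GSK only, and 4 had H3K4me1 in both. Over all members these were 71.2%, 16% and 23.0%. Snrpa, a protein of the U1 particle, had H3K27ac at 7.44 and 7.86 and LSD1 in Veh only at 3.09. Srsf5 had 6.12 and 7.34, and Srsf2, a serine-arginine splicing factor, had 5.17 and 5.83 with Pol II at 15.4 and 11.8.

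**Figure D5:**
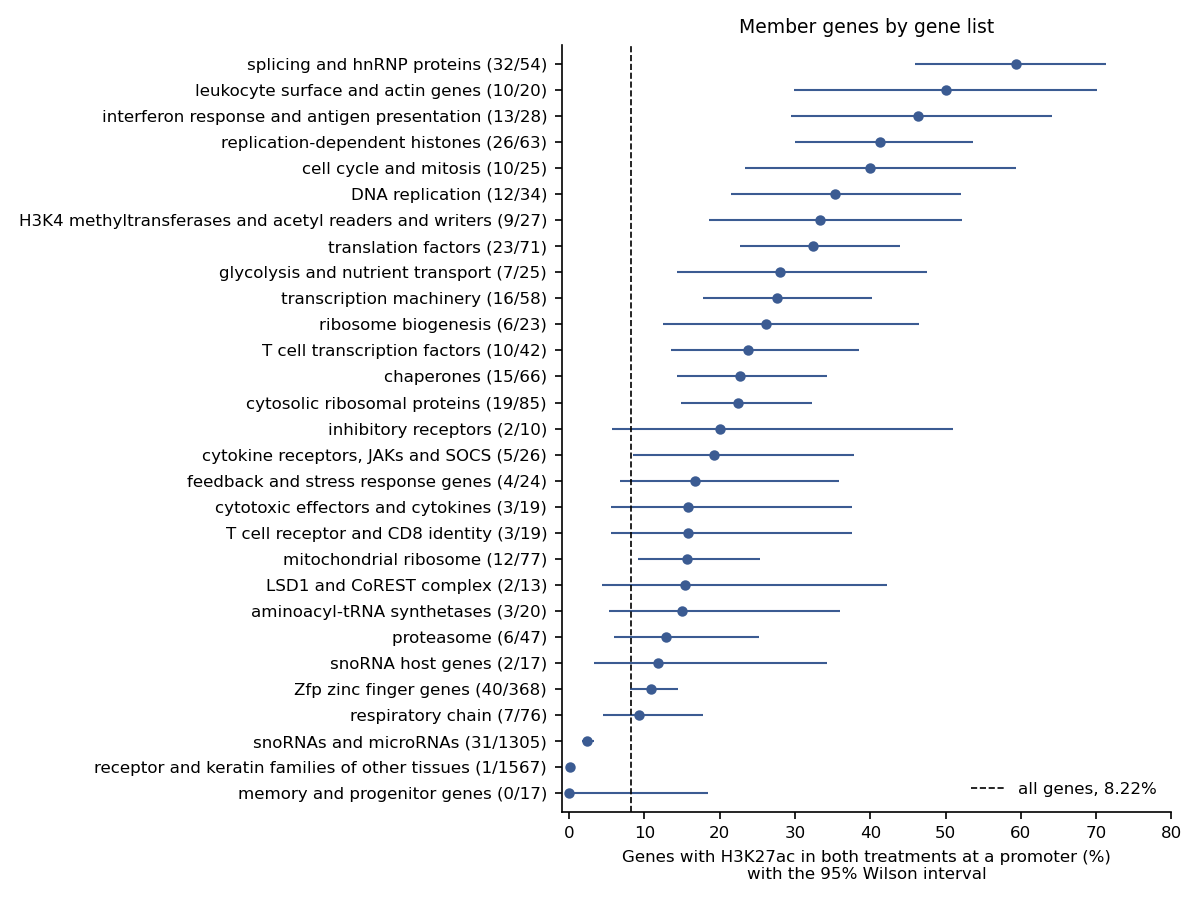
Share of genes of each list (x axis, percent) that have a promoter with H3K27ac in both treatments, with 95% Wilson intervals; the dashed line marks all genes at 8.22%. Splicing and hnRNP genes lie highest at 59.3%, and memory and progenitor genes lowest at 0 of 17.

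Genes of proliferation also had shares above that of all genes. Of the replication-dependent histone genes, which are expressed in S phase and lie in clusters, 26 of 63 were members (41.3%, 30.0 to 53.6). Their H3K27ac fold was low, with a median of 3.34 in Veh and 4.03 in GSK against 4.28 and 5.06 over all members. The Veh H3K27ac −log10 p lay on either side of the member median of 12.4, at 9.44 for H4c18 and 14.3 for H1f4 and H2bc6. Their median LSD1 fold was high, at 5.35 and 6.31 against 4.37 and 4.92. H4c18 had LSD1 at 7.96 and 11.3 and Pol II at 20.3 and 18. H1f4 and H2bc6 share peaks, with LSD1 at 8.44 and 11.0. These genes are near-identical copies within clusters and their reads are uncertain. Cell cycle and mitosis genes had 10 of 25 members and DNA replication genes 12 of 34 (35.3%). Cdk1, the mitotic kinase, had H3K27ac at 5.40 and 6.50, Mki67, the proliferation antigen, at 5.31 and 6.20, and Pcna, the polymerase clamp, at 5.13 and 6.14, each with LSD1 and Pol II in both treatments. Mcm3, a subunit of the replicative helicase, had H3K27ac at 6.73 and 6.21, LSD1 in GSK only at 4.17 and Pol II in Veh only at 5.82.

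Genes of protein synthesis and energy were mixed. Translation factors had 23 of 71 genes among members (32.4%, 22.7 to 43.9), led by Eif1, which selects the start codon, with H3K27ac at 6.22 and 7.64 and Pol II at 12.3 and 9.03. Cytosolic ribosomal proteins had 19 of 85 (22.4%, 14.8 to 32.3), while 51 more had H3K27ac in Veh only. All 24 of their member promoters had Pol II in both treatments, 10 had LSD1 in both and 8 in GSK only, and none had H3K4me1 in both. The mitochondrial ribosome had 12 of 77 (15.6%), the proteasome 6 of 47 (12.8%) and chaperones 15 of 66 (22.7%). The respiratory chain had 7 of 76 (9.21%), near the share of all genes although all 76 had H3K4me3, with 42 in Veh only. Of its members, Cox7c, a subunit of cytochrome oxidase, had H3K27ac at 4.42 and 5.61, LSD1 in GSK only at 6.17 and H3K4me3 at 8.68 and 8.57. Pfkl, a phosphofructokinase subunit, led the 7 members of 25 glycolysis and transport genes (28.0%), with H3K27ac at 6.72 and 6.79 and no LSD1.

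Among the T cell genes, receptor components and effectors each had 3 members of 19 and inhibitory receptors 2 of 10. These shares, 15.8%, 15.8% and 20.0%, stood above the 8.22% of all genes, with wide intervals that include it. Of the T cell receptor and CD8 identity genes 3 of 19 were members (15.8%, 5.52 to 37.6): Lck, the receptor-proximal kinase, Lcp2, the adaptor SLP-76, and Zap70. Lck had H3K27ac at 2.94 and 3.28, H3K4me1 at 3.14 and 2.66, Pol II at 6.26 and 3.66, and no LSD1 at that start. All 4 member promoters of this list had H3K4me1 in both treatments, as had the 3 of cytotoxic effectors, where the share over all members is 23.0% and over all promoters 25.9%. Among effectors, 3 of 19 were members. Gzmb, the protease granzyme B, had H3K27ac at 3.30 and 3.58 and LSD1 at 4.96 and 4.84. Nkg7, a protein of cytotoxic granules, had 2.96 and 4.15 with LSD1 at 5.57 and 5.02 and H3K4me1 at 4.46 and 4.96. Fasl, the death ligand, had 3.46 and 4.59 with LSD1 in GSK only at 4.07.

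Of the inhibitory receptors, Btla and Tigit were members, 2 of 10. Tigit had H3K27ac at 3.40 and 5.40, LSD1 at 7.25 and 7.09, H3K4me2 at 4.83 and 4.30, and Pol II in Veh only at 4.48. Btla had 3.82 and 4.71, no LSD1, H3K4me1 in Veh only at 3.42 and Pol II at 3.65 and 3.42. Of 17 memory and progenitor genes none was a member, which allows a share of up to 18.4% by the Wilson interval, although 16 had H3K4me3 and 5 had H3K27ac in Veh only. T cell transcription factors had 10 of 42 (23.8%). Stat3 had H3K27ac at 4.35 and 5.09 with LSD1 at 5.79 and 8.28, and Jun, a subunit of AP-1, had 3.85 and 4.71 with Pol II at 12.7 and 8.73.

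Signalling genes around the receptor were at similar shares. Cytokine receptors, JAKs and SOCS proteins had 5 of 26 members (19.2%, 8.51 to 37.9) and feedback and stress response genes 4 of 24 (16.7%, 6.68 to 35.9). Jak1, a kinase of cytokine receptors, had H3K27ac at 4.33 and 5.41. Dusp1, a phosphatase of MAP kinases, had 5.14 and 5.1 with Pol II at 13.1 and 7.72.

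Leukocyte surface and actin genes had 10 of 20 members (50.0%, 29.9 to 70.1) with few LSD1 peaks in Veh. Of their 14 member promoters, 2 had LSD1 in both treatments and 9 in GSK only, whereas over all members 1838 had it in both and 412 in GSK only. All 14 had Pol II in both. Arpc2, a subunit of the actin-nucleating Arp2/3 complex, had H3K27ac at 4.52 and 4.69 and LSD1 in GSK only at 5.54. Arhgdib had 3.49 and 4.45 with LSD1 in GSK only at 3.83. The list has few promoters, some at the same gene, and the difference was not tested. The widest GSK H3K27ac peaks included Coro1a, another actin regulator, at 1865 bp, after Ywhaz at 1913 bp.

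Interferon response and antigen presentation genes had 13 of 28 members (46.4%, 29.5 to 64.2). Of their 17 member promoters 9 had H3K4me1 in both treatments, which 23.0% of all members had, and 4 had Pol II in Veh only, which 7.59% had. H2-K1, the class I heavy chain, had H3K27ac at 3.89 and 4.69, Pol II at 14.4 and 11.7, and all other marks in both treatments. Irf1 had 4.11 and 4.59 with Pol II at 10.7 and 8.75, and Bst2, the restriction factor tetherin, had 3.75 and 5.25 with LSD1 at 6.52 and 6.81. Ifit2 had 3.78 and 5.36, with LSD1 and Pol II in Veh only at 3.74 and 4.59.

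Some members encode the enzymes of these marks. Of the H3K4 methyltransferases and acetyl readers and writers 9 of 27 were members (33.3%). Ep300, the acetyltransferase p300 that writes H3K27ac, had H3K27ac at 3.80 and 5.58, LSD1 at 3.61 and 4.43 and Pol II at 4.65 and 4.8. Setd1a, a methyltransferase of H3K4me3, had 5.44 and 5.94 with LSD1 at 5.30 and 3.78 and no Pol II. Of the LSD1 and CoREST complex genes 2 of 13 were members, among them Rcor1 (CoREST1). Rcor1 had H3K27ac at 4.01 and 4.68 and LSD1 in GSK only at 3.94. Zfp zinc finger genes had 40 of 368 (10.9%, 8.08 to 14.5), close to the background, and Taf9, a subunit of TFIID, led the 16 of 58 genes of the transcription machinery at 6.43 and 8.01.

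Membership turned on narrow margins for some promoters. Just outside, a GSK H3K27ac peak began 7 bp beyond the window of Kcnq5, a potassium channel, at a fold of 4.50, 15 bp beyond that of Rnf166 and 18 bp beyond that of 1700031P21Rik. Just inside, the GSK peak overlapped the window of Kdm2b, a demethylase of H3K36, by 5 bp and that of Rfx3 by 9 bp. The lowest GSK H3K27ac −log10 q among members was 3.03 at Ticrr, 3.08 at Rbm26 and 3.09 at Ccdc88b, with folds of 4.54, 4.57 and 4.57.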

How the data were processed

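ChIP-seq was carried out on cultured CD8+ T cells with 6 antibodies in Veh and GSK, giving 12 peak lists. The 4 input libraries have no peak list and were not analysed here. Per the labels and methods, reads were mapped uniquely to mm10 with Bowtie2, duplicates were removed, and peaks were called with MACS2 in single libraries, as narrow peaks for LSD1 and Pol II and broad regions for the histone marks. Each deposited list gives a score, a fold enrichment (a ratio to local background), a −log10 p-value and a −log10 q-value as computed by the authors. The lowest deposited −log10 p was 3.00, and the histone lists began at a −log10 q of 3.01. To compare signals, the authors also equalised libraries by random picking of reads. Whether the peaks were called on these equalised reads is not stated. Depth is not in the lists and, by the study's read numbers, differed between treatments. Interval widths therefore reflect numbers of promoters only, and a longer list can reflect more reads as well as more enrichment.

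TSSs came from curated RefSeq transcripts of GRCm38.p6 (mm10). Windows ran from 1000 bp before to 1000 bp after each TSS, the TSS base counted with the latter, and a peak counted at 1 bp of overlap. A promoter took the highest fold of its peaks. Net change is the GSK-only minus the Veh-only share in percentage points. Sequences were read from the same genome, and 23273 of 31603 promoters were also in the RefSeq promoter table, with identical sequence in all 23273. Python 3.11.15, pandas 2.3.3, numpy 2.4.6 and scipy 1.17.1 were used, and the overlap and interval code was tested on simulated data.

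The members, gene lists, motifs and comparisons were chosen with earlier results of these data known. Named genes were the 10 members with the highest H3K27ac rank in both lists, all members of a gene list with up to 8 and otherwise up to 6 by the same rank, the 5 with the widest GSK H3K27ac, up to 5 without H3K4me3, up to 5 per antibody and direction by −log10 p, the 3 nearest either side of the threshold, and the 5 lowest in CpG. Genes in the text are drawn from these, with cell type markers. Some genes that the rule names are not reported here. The alternatives were a window of 500 bp, stricter peaks, lists of equal length, an overlap of 200 bp, merged windows and protein-coding TSSs.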

Additional observations from a re-analysis of the deposited data

How the results depend on the processing

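No paired analysis was possible because each antibody and treatment has 1 library and the replicate numbers in the labels belong to the inputs. Of 66 values (11 results under 6 alternatives), 45 stayed within the interval of the main value (or within 1.5 times the number of members), 21 moved beyond it and 0 reversed; the causes were not tested beyond what each alternative changes. With stricter peaks (−log10 q of at least 5 in histone lists and 2 in LSD1 and Pol II lists) there were 1448 members. Net changes were then 14 points for LSD1, 5.52 for H3K4me1, -17.0 for H3K4me2, 0.0691 for H3K4me3 and -6.77 for Pol II, LSD1 retention was 91.2%, and members minus Veh-only differences were 2.90 points for LSD1, -2.71 for H3K4me1, -3.54 for H3K4me2 and 17.8 for Pol II. With lists of equal length the net changes were 12.4 points for LSD1, 1.12 for H3K4me1 and -1.24 for H3K4me2, and the differences to Veh-only promoters were -8.63 points for H3K4me2 and 16.1 for Pol II. The window of 500 bp gave net changes of 2.40 points for H3K4me1 and -14.4 for H3K4me2. An overlap of 200 bp gave 6.29 and -20.8 points, and merged windows gave -26.1 points for H3K4me2. Merging left 1722 member regions, and protein-coding TSSs alone moved no value beyond its interval. The GSK H3K27ac library, whose list sets the number of members, was much shallower than the Veh one by the study's read numbers. Whether reads were equalised before peak calling is not stated. Without replicates or reads, a peak missing from a list cannot be told apart from a peak below the threshold of that library.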

Other observations

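Members were also ordered by their GSK H3K27ac −log10 p in 4 bins of 644 to 647 promoters. Pol II was listed in both treatments at 81.8% (78.7 to 84.6) of bin 1 and 90.0% (87.4 to 92) of bin 4. LSD1 in both stood at 70.0%, 73.5%, 69.8% and 71.3% in bins 1 to 4, with overlapping intervals, and H3K4me1 in both at 21.6%, 22.1%, 22.1% and 26.3%. Of the 2149 member genes, 350 had more than 1 member TSS, up to 6 at Ogdh, a subunit of the oxoglutarate dehydrogenase, and 229 (10.7%) had another TSS that was no member.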
